A study of Mus musculus with 6 samples.

Results

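The genes described here encode the parts of the phagocyte NADPH oxidase and the proteins it works with in the membrane. They are Cybb, Cyba, Ncf1, Ncf4, Rac2 and Hvcn1, which were found by their symbols in the deposited count table and make up 6 of its 16254 genes. The cells were eosinophils grown from the bone marrow of C57BL/6 mice aged 6 to 12 weeks, in a culture of 12 days whose last 8 days were in IL-5. The 3 EV-treated samples received extracellular vesicles (EVs) from activated TH2 cells at 5e9 EVs per ml for 24 h, after the TH2 cells had been restimulated for 6 h. The 3 sham-treated samples received non-conditioned medium taken through the same purification, and the samples are named by treatment and replicate number. All 6 samples are bulk RNA from cultures, so fewer cells of a type and less RNA per cell cannot be told apart in any value below. In the study's survival assays, more eosinophils were alive after 24 h with EVs at this dose than without treatment. The part of such a difference in the values below was not tested.

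The oxidase transfers electrons from NADPH in the cytosol to oxygen outside the cell or in a phagosome, which makes superoxide. Its membrane core, flavocytochrome b558, joins the products of Cybb (gp91phox, also called NOX2, which carries the electrons) and Cyba (p22phox, which stabilises it and is a docking site). On activation a cytosolic complex that includes the products of Ncf1 (p47phox, the organiser) and Ncf4 (p40phox) moves to this core together with a Rac GTPase, and the proton channel encoded by Hvcn1 carries out protons that balance the charge moved. Eosinophils are known for a strong respiratory burst, directed largely at the cell surface.

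EV- and sham-treated eosinophils differed in the mRNA of 3 of the 6 genes. Rac2 and Ncf1 mRNA were higher after EV treatment, by 1.53-fold and 1.34-fold, and Cybb mRNA was lower, at 0.720 of its sham level. Cyba, Ncf4 and Hvcn1 did not pass the test. A call means that the quasi-likelihood test of edgeR, adjusted by Benjamini-Hochberg over the 13498 genes tested, gave a value under 0.01. By that rule 12.1% of all genes tested were called higher and 11.6% lower, or 23.7% in either direction. The 3 called members are also those whose sham and EV samples did not overlap, a separation seen in 49.6% of all genes tested. None of the 6 reached an absolute log2 fold change of 1, which 9.45% of all genes tested did while also passing the test.

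**Figure D1:**
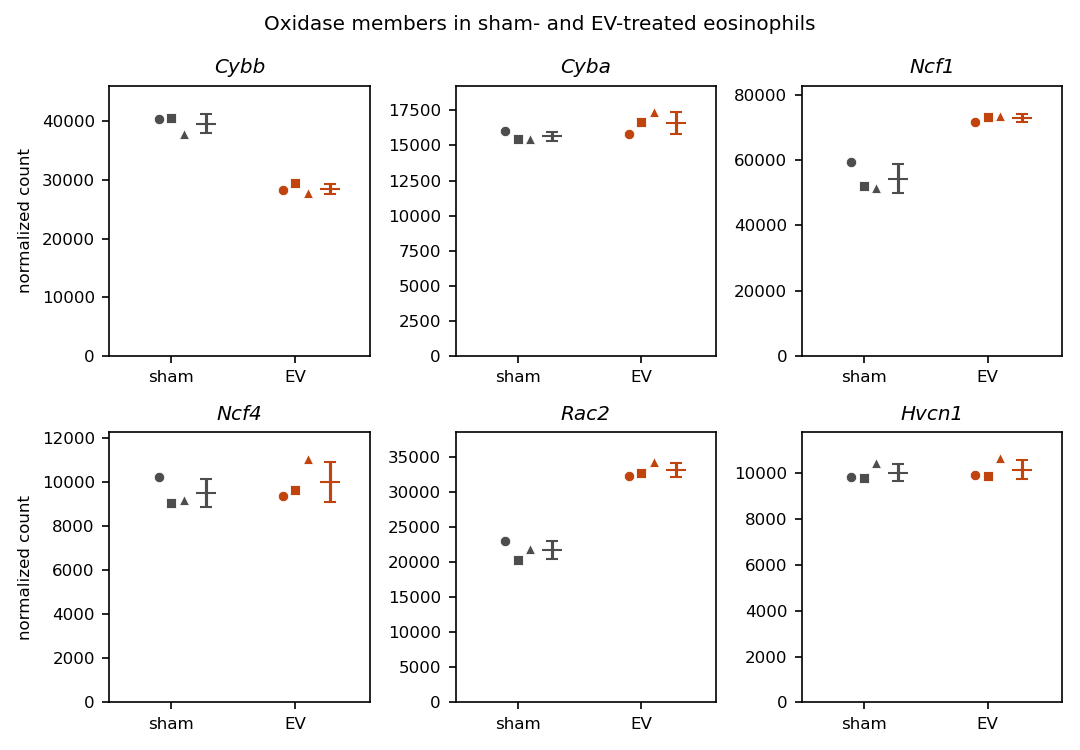
Normalized count of each of the 6 genes (1 panel per gene, each axis from 0) in the 3 sham-treated (grey) and 3 EV-treated (orange) samples. Circles, squares and triangles are replicates 1, 2 and 3, and the bars are mean ± SD; the groups are apart for Cybb, Ncf1 and Rac2 and overlap for Cyba, Ncf4 and Hvcn1.

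The promoters of 2 called genes are shown because their bases can be set beside the change in mRNA. RefSeq's promoter table for GRCm38.p6 held Cybb, Cyba and Ncf1, and the 250 bases before the RefSeq transcript start were searched on both strands for 3 short motifs chosen with the sequences in view. These were GAGGAA, a core recognised by PU.1, TTCNNNGAA, recognised by STAT factors, and the motif of interferon regulatory factors (IRF motif), which was taken as GAAA, 2 bases of any kind and GAAA again. They occur in 23.3%, 7.01% and 2.97% of the 32817 promoters of that table. Capitals mark the matches in the sequences, which read 5′ to 3′ on the strand of the gene, chrX:9469325-9469574 (minus strand) for Cybb and chr5:134229626-134229875 (minus strand) for Ncf1.
Cybb: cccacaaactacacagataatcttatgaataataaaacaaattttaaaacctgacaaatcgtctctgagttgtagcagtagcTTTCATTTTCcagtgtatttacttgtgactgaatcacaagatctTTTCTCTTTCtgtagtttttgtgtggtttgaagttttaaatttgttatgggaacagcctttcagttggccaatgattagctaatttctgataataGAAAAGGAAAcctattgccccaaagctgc
Ncf1: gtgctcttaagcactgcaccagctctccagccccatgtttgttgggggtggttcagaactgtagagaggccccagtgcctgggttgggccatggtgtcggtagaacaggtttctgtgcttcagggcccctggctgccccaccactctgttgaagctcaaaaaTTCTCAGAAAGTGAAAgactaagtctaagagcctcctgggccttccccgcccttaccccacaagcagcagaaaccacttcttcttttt
The Cybb promoter held the IRF motif at 3 places, whose first bases lie 168, 124 and 29 bases before the start, the first and second of them on the opposite strand. In Ncf1, TTCNNNGAA began 88 bases before the start and overlapped an IRF motif that began 82 bases before it. The window of Cyba held none of the 3 motifs. A match says only that these letters are present.

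Cybb lies at X:9435252-9487771 on the minus strand in GENCODE vM21 (GRCm38), and the RefSeq start used above lies inside that span. Its normalized counts, which are counts scaled to a common library size, were 40467, 40575 and 37837 in sham-treated replicates 1, 2 and 3. In EV-treated replicates 1, 2 and 3 they were 28264, 29488 and 27833. Every EV-treated sample was therefore below every sham-treated sample. The mean fell from 39626 ± 1551 to 28528 ± 858.5 (SD, n = 3 each), a log2 fold change of -0.47 with a standard error of 0.0520 and a 95% interval of -0.59 to -0.36 (edgeR, Benjamini-Hochberg adjusted p = 6.58e-05).

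Macrophage and monocyte genes moved in the same samples, and Cybb is also transcribed in those cells. Of 12 such markers tested, 7 were called lower (Csf1r, Cd68, Cd14, C1qa, C1qb, C1qc and Ms4a7) and 2 higher (Adgre1 and Ly6c2). The shares of all genes tested were 11.6% and 12.1%. None of the 12 was at 0 in any sample. The sum of all 12 ranged from 1808 to 2283 CPM (the count relative to the library size scaled by the trimmed mean of M values, TMM) in sham-treated and from 2217 to 2413 CPM in EV-treated samples. In EV-treated samples Adgre1 and Ly6c2, the 2 called higher, were the largest terms of this sum. From sham to EV their mean normalized counts went from 21326 to 32764 and from 10910 to 27641. The 7 called lower, a subset picked by its values, summed to 728.5, 1209.7 and 1131.8 CPM in sham-treated replicates 1, 2 and 3 and to 238.7, 317.7 and 316.6 CPM in the EV-treated replicates. All 7 had their lowest sham level in sham-treated replicate 1, as did 61.3% of all 1572 genes called lower. Cybb did not share this order. Its normalized counts were 40467 in sham-treated replicate 1 and 37837, its lowest, in sham-treated replicate 3. The part of these cells in the change of Cybb was not tested.

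Cyba lies at 8:122424776-122432930 on the minus strand. It had 16021, 15480 and 15449 normalized counts in the sham-treated and 15796, 16645 and 17364 in the EV-treated replicates. EV-treated replicate 1 fell inside the sham range, and the other EV-treated samples were above it. The means were 15650 ± 322 and 16602 ± 785, and the log2 fold change of 0.09 (SE 0.0548, 95% interval -0.04 to 0.21) did not pass the test (edgeR adjusted p = 0.264).

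Because the products of Cybb and Cyba form 1 heterodimer, their counts were also set against each other within each sample, a measure that library scaling cannot move. The count ratio of Cybb to Cyba was 2.526, 2.621 and 2.449 in sham-treated and 1.789, 1.772 and 1.603 in EV-treated replicates. On the log2 scale the mean ratio went from 1.34 ± 0.049 to 0.78 ± 0.088, a difference of -0.56. The groups did not overlap, and the two-sided exact permutation test gave p = 0.1, the smallest it can give with 3 samples against 3, as it did for each of the 5 ratios compared here (adjusted p = 0.1 over the 5). Each ratio holds at least 1 of the called genes Cybb, Ncf1 and Rac2, so none is a result separate from those of the single genes.

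Cybc1, which encodes a chaperone (EROS) needed for the gp91phox and p22phox proteins to accumulate, was higher after EV treatment. It had 1915, 1859 and 2034 normalized counts in the sham-treated and 2330, 2439 and 2434 in the EV-treated replicates, with no overlap between the groups. The log2 fold change was 0.31 (SE 0.0656, edgeR adjusted p = 0.00434), and this call was lost without any one of EV-treated replicates 1, 2 and 3 or sham-treated replicate 2 (adjusted p = 0.0139, 0.0256, 0.0245 and 0.013). Of the 31-base sequence words of Cybc1, 0.869% also occur in other transcripts. The opposite-strand gene Hexdc had 72.2% of the summed CPM of the pair and a log2 fold change of 0.15 (edgeR adjusted p = 0.193).

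Ncf1 lies at 5:134220053-134229625 on the minus strand and encodes p47phox, whose phosphorylation starts assembly of the complex. Its normalized counts were 59454, 52042 and 51619 in sham-treated and 71591, 73410 and 73690 in EV-treated replicates. Sham-treated replicate 1 was the highest of its group and still lay below all 3 EV-treated samples. The mean rose from 54371 ± 4406 to 72897 ± 1140, a log2 fold change of 0.42 (SE 0.0609, 95% interval 0.29 to 0.56, edgeR adjusted p = 0.000412). Of its 31-base sequence words, 9.84% also occur in other transcripts, mostly of Gtf2ird2 on the opposite strand, which had 0.28% of the summed CPM of the pair.

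Ncf4 lies at 15:78244801-78262580 on the plus strand, and its p40phox binds a lipid of the phagosome membrane. It had 10209, 9035 and 9196 normalized counts in sham-treated and 9339, 9638 and 11012 in EV-treated replicates. The groups overlapped, with EV-treated replicate 3 alone above the sham range. The means were 9480 ± 636.5 and 9997 ± 892, and the log2 fold change of 0.08 (SE 0.0766, 95% interval -0.09 to 0.25) did not pass the test (edgeR adjusted p = 0.484).

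The count ratio of Ncf1 to Ncf4 was 5.824, 5.760 and 5.613 in sham-treated and 7.665, 7.616 and 6.692 in EV-treated samples. The log2 ratio rose from 2.52 ± 0.027 to 2.87 ± 0.111, and the groups did not overlap.

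Rac2, at 15:78559167-78572783 on the minus strand, encodes the Rac GTPase that is largely restricted to blood cells and switches on the assembled oxidase. It had 22970, 20301 and 21779 normalized counts in sham-treated and 32288, 32715 and 34228 in EV-treated replicates. The lowest EV-treated sample was well above the highest sham-treated sample. The mean rose from 21683 ± 1337 to 33077 ± 1019, the largest change of the 6 genes, with a log2 fold change of 0.61 (SE 0.0586, 95% interval 0.48 to 0.74, edgeR adjusted p = 2.73e-05).

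The broadly expressed Rac1 can also serve NOX enzymes, and its mRNA had a smaller log2 fold change than that of Rac2. It had 6742, 6454 and 6813 normalized counts in sham-treated and 7053, 7439 and 7060 in EV-treated replicates. These groups did not overlap, but the log2 fold change of 0.11 (95% interval -0.02 to 0.23) did not pass the test (edgeR adjusted p = 0.169). In Rac1, 51.3% of the sequence words were shared with other transcripts, of Daglb among them, and Daglb had 25.2% of the CPM of that pair and a log2 fold change of -0.59 (edgeR adjusted p = 9.44e-05). The count ratio of Rac2 to Rac1 was 3.407, 3.145 and 3.197 in sham-treated and 4.578, 4.398 and 4.848 in EV-treated replicates. Per kilobase of transcript, Rac2 made up 82.3%, 81.1% and 81.3% of the summed Rac1, Rac2 and Rac3 level in sham-treated and 86.2%, 85.7% and 86.9% in EV-treated replicates. Rac3 was below 1 CPM per kilobase in every sample.

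Hvcn1, at 5:122206804-122242297 on the plus strand, encodes the voltage-gated proton channel HV1. Its normalized counts were 9842, 9758 and 10434 in sham-treated and 9922, 9876 and 10643 in EV-treated replicates. The samples of the groups were interleaved, and the means of 10011 ± 368 and 10147 ± 430 differed by a log2 fold change of 0.02 (SE 0.0573, 95% interval -0.11 to 0.15, edgeR adjusted p = 0.825). Of its sequence words, 41.5% were shared, all with the opposite-strand gene Tctn1. The use of strand in counting is not given in the sources used here, and Tctn1 had 9.4% of the CPM of that pair and a log2 fold change of 0.54 (edgeR adjusted p = 0.00461). The count ratio of Hvcn1 to Cybb was 0.243, 0.240 and 0.276 in sham-treated and 0.351, 0.335 and 0.382 in EV-treated replicates.

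**Figure D2:**
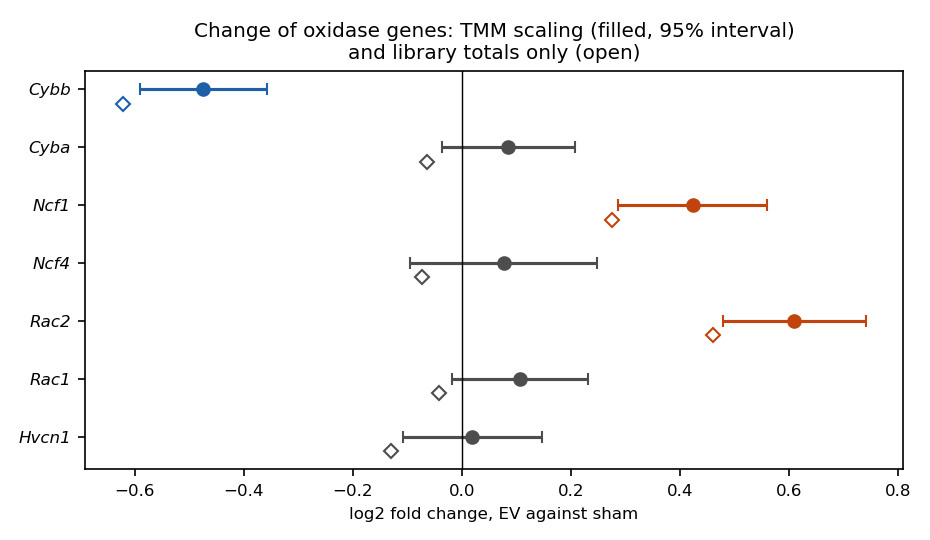
Log2 fold change of EV-treated against sham-treated samples for the 6 genes and for Rac1. Filled circles with bars are the edgeR estimate and its 95% interval under TMM scaling, coloured blue where called lower, orange where called higher and grey where not called; open diamonds are the same estimate scaled by library totals only, in the colour of the filled circle. Without TMM every estimate sits further to the left, and Cyba, Ncf4, Hvcn1 and Rac1 fall below 0.

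The small estimates of Cyba, Ncf4 and Hvcn1 had no direction that held under every scaling. Scaling by library totals alone, without TMM, shifted the median log2 fold change of all genes tested from -0.01 to -0.16, and 30.7% rather than 50.9% of the calls were then higher. Under it the log2 fold changes were -0.06 for Cyba, -0.07 for Ncf4, -0.13 for Hvcn1 and -0.04 for Rac1. Cybb at -0.62, Ncf1 at 0.27 and Rac2 at 0.46 stayed called in their directions, whereas the call of Cybc1 at 0.16 (adjusted p = 0.0736) was lost.

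Levels between genes were compared as TMM-scaled CPM per kilobase of the longest protein-coding transcript. In sham-treated eosinophils Cyba had the highest level of the 6 genes at 682 ± 14.0 CPM per kilobase (SD, n = 3), followed by Ncf1 at 612 ± 49.6. Cybb had 270.3 ± 10.6, Rac2 231 ± 14.3, Ncf4 209.9 ± 14.1 and Hvcn1 116 ± 4.26. Only Rac2 and Ncf4 were neighbours whose sham-treated samples overlapped. In EV-treated eosinophils Ncf1 came first at 819.8 ± 12.8, followed by Cyba at 723 ± 34.2, Rac2 at 353 ± 10.9 and Ncf4 at 221 ± 19.8. Cybb came next to last at 195 ± 5.86 and Hvcn1 last at 117 ± 4.97, and no neighbours in this order overlapped. All 6 mRNAs were abundant, between the 96.2 percentile (Hvcn1) and the 99.5 percentile (Cyba and Ncf1) of the genes tested. Levels per kilobase rest on the chosen transcript length, which is the same in both groups.

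Ncf1 and Cyba thus exchanged places, and Cybb went from the third to the fifth place. Of the 5 ratios compared, that of Cybb to Ncf1 shifted most. It was 0.681, 0.780 and 0.733 in sham-treated and 0.395, 0.402 and 0.378 in EV-treated replicates. The log2 ratio fell by 0.90, from -0.45 ± 0.098 to -1.35 ± 0.046. Over all 6 genes the summed level was 5152, 4771 and 4742 CPM in sham-treated and 5419, 5568 and 5665 CPM in EV-treated replicates, so that the groups did not overlap. With library totals only the sums were 5377, 5068 and 4984 CPM against 5188, 5320 and 5302 CPM, and the groups overlapped.

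**Figure D3:**
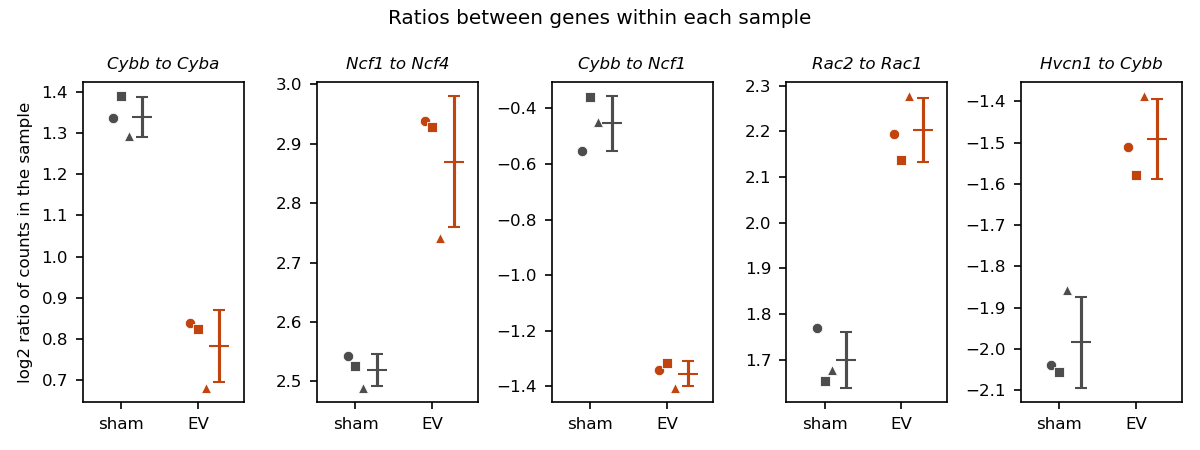
Log2 ratio of the counts of 2 genes within the same sample, for the 5 pairs compared, in sham-treated (grey) and EV-treated (orange) samples. Circles, squares and triangles are replicates 1, 2 and 3, bars are mean ± SD, and each panel has its own axis, which does not start at 0. In every panel the groups are apart, with Cybb lower against Cyba and Ncf1, and Ncf1, Rac2 and Hvcn1 higher against Ncf4, Rac1 and Cybb. Every pair holds Cybb, Ncf1 or Rac2, which were called on their own, so the panels are not separate results.

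How alike the genes were over the 6 samples was measured as the root mean square difference of their log2 normalized counts, each centred on its own mean. Among the 6 genes Cyba was closest to Ncf4 (0.0554) and Hvcn1 (0.0574), and Ncf1 and Rac2 were 0.102 apart. Cybb and Rac2 were farthest apart at 0.548. Among 10454 tested genes with a mean normalized count over 100, Tsen34, a subunit of the tRNA splicing endonuclease, was closest to Cybb at 0.00661, followed by Wsb1 at 0.0323. The nearest genes were Npepps (0.0194) and Pld1 (0.0241) for Ncf1 and Atg9a (0.0231) and Trappc14 (0.0241) for Rac2. For Cyba they were Gnb2 (0.0200) and Map1lc3b (0.0219), for Ncf4 Rplp2 (0.0139) and Dapk2 (0.0155), and for Hvcn1 Eif3i (0.0188) and Mtor (0.0209). All of these values share the same 6 libraries, so they describe likeness in these samples only.

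Of 13 other genes of the oxidase and the NOX family, 7 were in the table and 5 could be tested. Of these 5, 2 were called higher (40%) and none lower, against 12.1% and 11.6% of all genes tested. Their median log2 fold change was 0.33, against -0.01 for all genes tested. The gene called beside Cybc1 was Rap1a, a small GTPase that copurifies with the flavocytochrome, at a log2 fold change of 0.55 (edgeR adjusted p = 0.0018), a call lost without EV-treated replicate 2 (adjusted p = 0.0108). Nox4 and Noxo1 were tested and did not pass, and Nox1 was at 3 counts or fewer in every sample.

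The 27 regulators of oxidase assembly were Rac exchange factors and inhibitors, kinases that phosphorylate the phox proteins, and lipid enzymes. Of these, 10 were called higher (37%) and 4 lower (14.8%), against 12.1% and 11.6% of all genes tested. Their median log2 fold change was 0.14. Pik3cd, the catalytic subunit of the leukocyte PI3-kinase delta, rose from 7707 ± 269 to 22405 ± 930 normalized counts, a log2 fold change of 1.54 (edgeR adjusted p = 5.75e-08). The kinase gene Pak1 fell from 244.5 ± 77.7 to 52.3 ± 3.76 (log2 -2.22, adjusted p = 0.000142). The Rac exchange factor gene Vav2 fell from 534 ± 120 to 175 ± 55.7 (log2 -1.61, adjusted p = 0.000532). Genes of the same families, named with their values seen, had higher counts. Pak2 went from 7213 to 9123 and was called higher (log2 0.34, adjusted p = 0.00119). Vav1 (3821 to 3428, adjusted p = 0.074) and Vav3 (1705.7 to 1545.5, adjusted p = 0.16) were not called. The protein kinase C genes Prkca (1.18, adjusted p = 1.03e-06) and Prkcd (0.47, adjusted p = 0.000132), whose products phosphorylate p47phox, were among the genes called higher and are named with their values seen. Of the 4 genes called lower, 3 (75%) were lowest among the sham-treated samples in replicate 1, Pak1 and Vav2 among them. The share was 61.3% among all genes called lower.

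Of 15 enzymes that supply NADPH, none was called higher and 4 were called lower (26.7%), against 12.1% and 11.6% of all genes tested. Their median log2 fold change was -0.17. Pgd, of the pentose phosphate pathway, was at -0.35 (edgeR adjusted p = 0.000732) and Me2, a mitochondrial malic enzyme, at -0.50 (adjusted p = 0.000608). Me1, the cytosolic malic enzyme, fell from 64.7 ± 26.6 to 7.70 ± 2.99 normalized counts (log2 -3.06, adjusted p = 0.00269), and Idh1 was at -0.36 (adjusted p = 0.00911). The call of Me1 was lost without EV-treated replicate 2 or 3 or sham-treated replicate 3 (adjusted p = 0.0169, 0.0185 and 0.0153), and that of Idh1 was lost without any single sample other than sham-treated replicate 1 (adjusted p from 0.0203 to 0.0528). G6pdx, the first enzyme of the pentose phosphate pathway, was at 0.20 and did not pass (adjusted p = 0.0415). Pgd and G6pdx are named with their values seen. Of the 4 genes called lower, only Idh1 (25%) was lowest among the sham-treated samples in replicate 1, against 61.3% of all genes called lower.

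Of 26 genes of oxidant handling and its regulation, 14 were called lower (53.8%) and 4 higher (15.4%), against 11.6% and 12.1% of all genes tested. Their median log2 fold change was -0.36. Hmox1, the haem oxygenase that is induced by oxidants and haem, had 13236, 19087 and 19862 normalized counts in sham-treated and 1506, 1678 and 1879 in EV-treated replicates. Even the lowest sham-treated sample, replicate 1, was far above every EV-treated sample, and the log2 fold change was -3.36 (edgeR adjusted p = 2.27e-07). Gpx3, a secreted glutathione peroxidase, was at -2.45 (adjusted p = 0.00027) and the peroxiredoxin gene Prdx4 at -1.97 (adjusted p = 0.00486), the latter lost without any single sample other than sham-treated replicate 1 (adjusted p from 0.0174 to 0.026). The 4 called higher, named with their values seen, were Nqo1 (0.85), Txnip (0.68), Gpx1 (0.65) and Gpx4 (0.37). Of the 14 genes called lower, 12 (85.7%) were lowest among the sham-treated samples in replicate 1, Hmox1, Gpx3 and Prdx4 among them. The share was 61.3% among all genes called lower. The 7 macrophage genes had the same lowest sham sample, and the part of macrophages in these changes was not tested.

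Eosinophil peroxidase, which turns the hydrogen peroxide derived from the oxidase's superoxide into hypohalous acids, was the 1 gene called among 3 peroxidases tested. It was called higher (33.3%) and none was called lower, against 12.1% and 11.6% of all genes tested. Mpo at a log2 fold change of 0.41 (edgeR adjusted p = 0.541) did not pass. Pxdn, at 51.4 normalized counts in sham-treated and 5.03 in EV-treated samples (log2 -3.35, adjusted p = 0.0172), did not pass either. Epx had 161558, 129430 and 149900 normalized counts in sham-treated and 212846, 178207 and 195651 in EV-treated replicates, with no overlap. The log2 fold change was 0.41 (edgeR adjusted p = 0.00404), and the call was lost without EV-treated replicate 1 or 3 or sham-treated replicate 2 or 3 (adjusted p = 0.016, 0.0166, 0.0122 and 0.019) and with library totals only (adjusted p = 0.0263).

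Of 14 genes for ion and volume transport across the phagosome membrane, 8 were called lower (57.1%) and 2 higher (14.3%). The shares of all genes tested were 11.6% and 12.1%. The median log2 fold change of the 14 genes was -0.49. Trpm2, a cation channel opened by ADP-ribose under oxidant stress, fell from 18559 ± 2516 to 6910 ± 587 normalized counts (log2 -1.43, edgeR adjusted p = 3.47e-06). The sodium-proton exchanger gene Slc9a9 was at -1.65 (adjusted p = 0.000332) and the chloride-proton exchanger gene Clcn5 at 1.13 (adjusted p = 2.57e-06). Of the 8 genes called lower, 6 (75%) were lowest among the sham-treated samples in replicate 1, Slc9a9 but not Trpm2 among them. The share was 61.3% among all genes called lower. The part of macrophages in these changes and the difference between these genes and Hvcn1 were not tested.

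Among 10 tested transcription factors known for the oxidase genes, 3 were called higher (30%) and 2 lower (20%). The shares of all genes tested were 12.1% and 11.6%. The median log2 fold change of the 10 genes was 0.17. Irf8, which acts with PU.1 at the Cybb promoter in myeloid cells, had 672, 1266 and 911 normalized counts in sham-treated and 53, 135 and 130 in EV-treated replicates. Irf8 was thus lower in all 3 EV-treated samples, at a log2 fold change of -3.15 (edgeR adjusted p = 5.01e-05), and Cebpa was at -2.29 (adjusted p = 1.49e-06). Irf1, an interferon-induced factor, rose from 2334 ± 245 to 4932 ± 53.7 normalized counts (log2 1.08, edgeR adjusted p = 4.81e-06). Spi1, the gene of PU.1 and named with its values seen, was at 0.18 and did not pass (adjusted p = 0.0519). Irf8 and Cebpa were also lowest among the sham-treated samples in replicate 1, as were 61.3% of all genes called lower. The part of macrophages in the change of Irf8 and Cebpa was not tested.

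**Figure D4:**
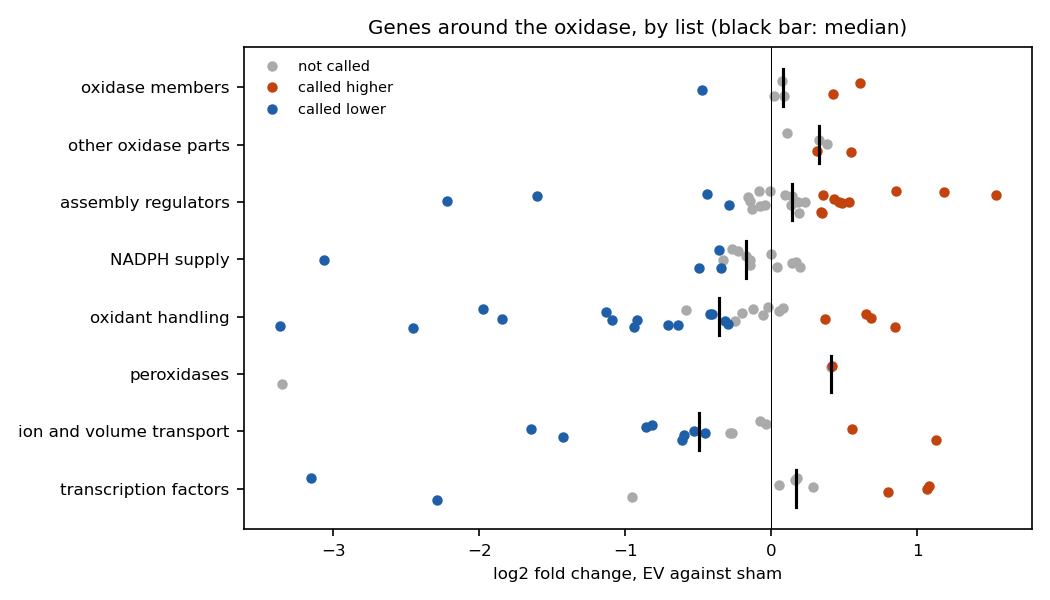
Log2 fold change of EV-treated against sham-treated samples for the tested genes of the 8 lists, 1 row per list, spread vertically so that points can be seen. Orange points were called higher, blue lower and grey not called (adjusted p under 0.01), and black bars are medians, which are lowest for ion and volume transport (-0.49) and oxidant handling (-0.36).

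The samples held the markers of their label. The counts of markers called are to be read beside the 12.1% higher and 11.6% lower of all genes tested. Of 12 eosinophil markers tested, 8 were called higher and none lower, among them Ccr3 (log2 1.13), Ear1 (0.90) and Siglecf (0.85), and their sum was 30539 to 38469 CPM in sham-treated and 43565 to 48670 CPM in EV-treated samples. Of 11 neutrophil markers, 2 were called higher (Ly6g, 2.65, and Cxcr2, 1.87) and 6 lower (Camp, -2.02, among them), with sums of 757 to 888 and 671.5 to 797.8 CPM. The macrophage markers given beside Cybb included Cd14 (-3.38), C1qa (-2.58) and C1qc (-2.56), and the 2 called higher, named with their values seen, were Ly6c2 (1.34) and Adgre1 (0.62). Mast cell and basophil markers had 4 of 6 called higher, with Ms4a2 (2.64), Mcpt8 (2.46, a call lost without sham-treated replicate 3, adjusted p = 0.013) and Cpa3 (1.30), and sums of 132.9 to 169.6 and 320.6 to 379.6 CPM. None of 4 T cell, 3 B cell and 3 dendritic cell markers tested was called, and these lists summed to at most 10.69 CPM in any sample. Stromal markers had 2 of 5 called lower (Cav1, -5.20, and Col1a2, -2.91, the latter lost without any single sample but 1), with sums of 336.5 to 667.6 and 15.53 to 198.3 CPM. The part of these other cells in the changes of the oxidase genes was not tested. Library totals were 23697620 to 32808674 estimated counts in sham-treated and 32260914 to 37874426 in EV-treated samples.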

How the data were processed

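RNA from bone marrow-derived eosinophils was sequenced in 3 sham-treated and 3 EV-treated samples, grouped by the treatment in the sample labels. The authors checked reads with FastQC, trimmed them with Cutadapt and quantified them with Salmon. The deposited estimated counts, of which 40.2% have a fractional part other than exactly 0, cover 16254 genes. A deposited signal, the authors' normalized counts, served for 1 alternative. It is the rounded count, raised by 1, over a factor for each sample (6 values deviate by over 0.01). The deposited table of the authors' own DESeq2 comparison holds fold changes and p-values and was not used. The submitters' processing notes name mm10; tool versions, annotation and strandedness are not given in the sources used here.

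Estimated counts were rounded and fitted with edgeR 4.0.16 (R 4.3.3): TMM, filterByExpr, quasi-likelihood test of treatment alone, Benjamini-Hochberg adjustment over 13498 genes, threshold 0.01. The standard error was obtained as the absolute log2 fold change over the root of the F statistic. Normalized counts in the text are rounded counts over the TMM-scaled library size, brought to the geometric mean size. Ratios used counts plus 0.5 and exact permutation tests. Transcript lengths, coordinates and shared 31-base words came from GENCODE vM21. The scripts were tested on simulated data. Totals of 23697620 to 37874426 mean that the spread between samples sets the precision. The labels call the samples biological replicates and do not say whether mice or cultures differed. The p-values measure only the spread between these samples.

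The 6 genes and all lists were chosen with earlier results of these data known. Some genes of the lists are not reported here and were left out of the counts. Named genes are the 6 genes, Rac1, of each list the 3 called genes with the largest absolute log2 fold change whose groups do not overlap, and the 2 genes most like each of the 6. Alternatives were DESeq2 1.42.0, limma 3.58.1 (voom, and log2 of the deposited normalized counts plus 1), RLE scaling, library totals only, no low-count filter, a replicate block, other thresholds, and leaving out each sample.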

Additional observations from a re-analysis of the deposited data

How the results depend on the processing

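Cybb, Ncf1 and Rac2 kept their direction and their call under each of the 7 alternative fits and without each of the 6 samples. Without single samples their log2 fold changes ran from -0.498 to -0.45, from 0.393 to 0.499 and from 0.564 to 0.659, and 3 members were called each time (3 to 3). None of the 6 passes once an absolute log2 fold change of 1 is also asked for (0 members). With library totals only, the estimates of genes that were not called turned: Cyba -0.064, Ncf4 -0.073, Hvcn1 -0.129, Rac1 -0.041, Gnb2 -0.044, Map1lc3b -0.085, Rplp2 -0.076, Dapk2 -0.059 and Mtor -0.118. Hvcn1 ran from -0.009 to 0.059 without single samples. Eif3i, at -0.002, turned to 0.005 with DESeq2, 0.002 with RLE, 0.000 with limma-voom, 0.014 without the filter, and ran from -0.030 to 0.045 without single samples, above 0 without EV-treated replicate 1 or 2 (0.010 and 0.035) or sham-treated replicate 3.

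The number of genes called higher was 1036 with library totals only, 419 with the fold limit and 1071 to 1833 without single samples. Lower calls numbered 2478 at an adjusted p under 0.05, 857 with the fold limit and 1018 to 1698 without single samples, the fewest in each direction without EV-treated replicate 3. Other oxidase parts had 1 call with library totals only and 0 to 2 without single samples, NADPH supply 8 and 2 to 4, and peroxidases 0 and 0 to 1, with 2 in DESeq2 and 2 under the replicate block. The cause was not tested.

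The replicate numbers shared by the groups were fitted as a block, which gave 1794 higher and 1781 lower calls and 3 called members. After removal of the group means, samples with the same number correlated at 0.117, 0.0846 and 0.0371. Samples with different numbers correlated at -0.116 to 0.0487, the highest being EV-treated replicate 3 with sham-treated replicate 2. The labels give only a biological replicate number, and whether samples of the same number share a source was not tested.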
